A study of Mus musculus with 4 samples.

Results

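The Smad and Id genes, a chain of signal carriers and their transcriptional targets, were examined in maps of RNA crosslinked to MSI2, an RNA-binding protein of the Musashi family, in mouse intestinal epithelium. The 10 genes were Smad1, Smad2, Smad3, Smad4, Smad5, Smad6, Smad7, Id1, Id2 and Id3, named by a fixed list of symbols out of 21900 protein-coding genes in the RefSeq table used. Every deposited peak that shared at least 1 base with the mm10 span of a listed gene was taken, on either strand. This gave 8 of the 12061 peaks in the wild-type list and 13 of the 16939 peaks in the TRE-Msi2 list. The assay was CLIP-seq, in which ultraviolet light joins RNA to the protein that touches it, the protein is pulled down with an antibody (here against MSI2), and the attached RNA fragments are sequenced. There were 2 libraries from wild-type mice (WT) and 2 from mice of the genotype TRE-Msi2, in which a doxycycline-responsive promoter element drives Msi2. All were on the C57BL6 background. Per the labels' protocols the WT material was intestinal crypts, with no doxycycline recorded, and the TRE-Msi2 material was total epithelium taken after 24 hours of doxycycline. Genotype, tissue fraction and drug therefore differed together and cannot be told apart. The age of the mice, how many were used, and the line that supplies the doxycycline-dependent activator are not stated by the labels.

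Smad proteins carry signals of the TGF-beta superfamily from receptors at the cell surface to the nucleus. Receptor-activated Smads are phosphorylated by the receptors, Smad1 and Smad5 mainly downstream of bone morphogenetic proteins (BMPs) and Smad2 and Smad3 mainly downstream of TGF-beta and activins; Smad4 is the common partner of both branches, and Smad6 and Smad7 are inhibitory. Id1, Id2 and Id3 are induced by BMP signals; they lack a DNA-binding region and hold basic helix-loop-helix partners away from DNA. In the intestine BMP signals are known to restrain stem cell expansion and to favour differentiation along the axis from crypt to villus.

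Each deposited list pools both libraries of a genotype, which leaves every value here without an error from replicates, and the genotypes were not compared by any test. The peak score is the authors' own and, for peaks made of 1 bin, behaves as a number of reads per 200-nt bin. Peaks joined from several bins carry fractional scores, such as 18.3 for a 400-nt Smad1 peak. How those were formed is not known, so joined and single-bin scores need not be on 1 scale. The median score was 19 for WT and 24.7 for TRE-Msi2, and peaks made of 1 bin started at 15 and 20. The depth of the libraries is unknown. Of 6 markers of intestinal epithelium 5 held peaks in each list (Cdx2 held none). All 4 enterocyte, all 3 Paneth cell and both goblet cell markers held peaks in each list too. The WT list, labelled as crypts, thus also held peaks over enterocyte markers, among them 35 over Sis. Of the other markers, 0 of 5 stromal, 0 of 2 smooth muscle and 0 of 2 endothelial ones held a peak. Of 4 immune markers Cd74 and Jchain did. RNA abundance was not measured, so more of a transcript and more binding to it cannot be told apart, nor can fewer cells of a type and less RNA per cell.

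Peaks lay over 4 of the 10 genes in the WT list and over 8 in the TRE-Msi2 list. Among all 21900 protein-coding genes, 20.3% held a WT peak and 24.9% a TRE-Msi2 peak. The 4 genes with WT peaks were Smad1, Smad2, Smad4 and Smad5, and each of these also held a TRE-Msi2 peak; 19.1% of protein-coding genes held peaks in both lists. Smad7, Id1, Id2 and Id3 held a peak in the TRE-Msi2 list only, against 5.76% of protein-coding genes. Smad3 and Smad6 held none in either list, as did 73.9% of protein-coding genes. No member held a WT peak alone (1.2% of protein-coding genes did). The members were listed with these results known, so the counts are a description. Gene length differs strongly within the set, from 1.16 kb in Id1 to 111 kb in Smad3. Of the 923 protein-coding genes with spans in the range of the Id genes (1.16 to 2.29 kb), 5.96% held a WT peak, 8.78% a TRE-Msi2 peak and 3.14% a TRE-Msi2 peak only. Of the 5691 in the range of the Smad genes (28.6 to 111 kb), the shares were 28.6%, 34.1% and 7.29%. Of the 6 members whose strand the RefSeq promoter table gives, 2 (Smad1 and Smad5) held a WT peak on that strand and 4 (with Id2 and Id3) a TRE-Msi2 peak, where 16.5% and 20.5% of protein-coding genes with a strand did.

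**Figure D1:**
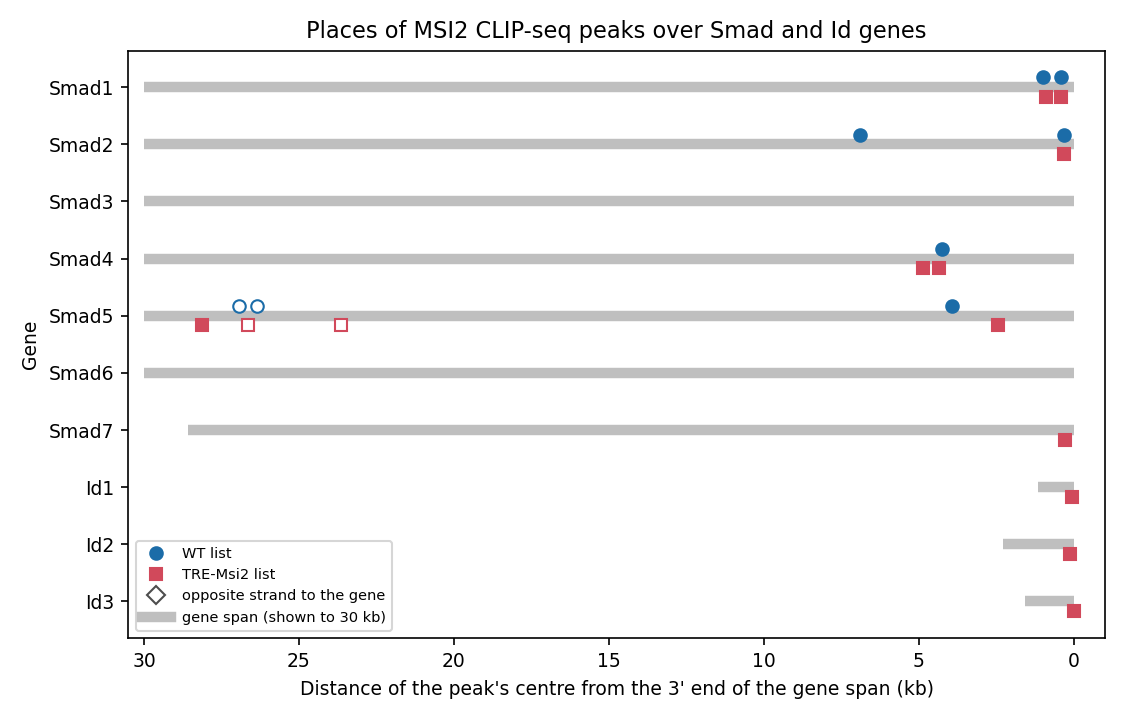
Places of the peaks over the 10 genes. The horizontal axis is the distance in kb of each peak's centre from the 3′ end of the gene span, which is at 0 on the right and is the gene's own end for open symbols too; blue circles are WT peaks, red squares are TRE-Msi2 peaks, open symbols mark peaks that run against the gene's strand, and grey bars are the gene spans, shown to 30 kb. The 3 Id peaks and the Smad7 peak sit at the gene end and are all red, whereas the Smad5 peaks are spread over the gene and 4 of them are open. Peaks near the gene end of Smad1 and Smad2 are in both colours.

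Smad1 and Smad5, the receptor-activated Smads of the BMP branch, differed in where their peaks lay. Smad1 (chromosome 8, minus strand, span 79338395 to 79399428) held 2 peaks in each list, all on its own strand and all in the last 2 kb of the span. The WT peaks at chr8:79338702-79338901 and chr8:79339302-79339501 had scores of 18 and 15 reads per bin. In the TRE-Msi2 list the first of these bins was called again with a score of 25, and the other lay within a peak of 400 nt, chr8:79339102-79339501, with a score of 18.3. Both Smad1 sites were thus found in both lists, 307 nt and 907 nt before the gene end in WT.

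Smad5 (chromosome 13, plus strand, span 56703010 to 56742378) held the most peaks of the set, 3 in WT and 4 in TRE-Msi2. On its own strand it held 1 WT peak, chr13:56738240-56738639 with a score of 11.3, and 2 TRE-Msi2 peaks, chr13:56714040-56714439 with 28.2 and chr13:56739840-56740039 with 21. None of these 3 overlapped a peak of the other list. The remaining peaks ran on the minus strand, opposite to Smad5. They were 2 WT peaks of 400 nt, chr13:56715240-56715639 and chr13:56715840-56716239, with scores of 19 and 13, a TRE-Msi2 peak of 1000 nt, chr13:56715240-56716239, with 24.3, and a TRE-Msi2 bin at chr13:56718640-56718839 with 25. The 1000-nt peak covered both WT peaks. No other gene span of the table overlapped Smad5, so no gene of the table covers these peaks on their own strand, and the only Smad5 site common to both lists runs against the gene. Over all protein-coding genes with a strand in the table, 17.6% of the pairs of a WT peak and a gene, and 15.8% of those of a TRE-Msi2 peak and a gene, were of opposite strand.

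Smad2 and Smad3, the receptor-activated Smads of the TGF-beta and activin branch, differed in that Smad2 held peaks in both lists and Smad3 held none. Smad2 (chromosome 18, span 76241090 to 76311748) held a bin near its end in both lists, chr18:76311347-76311546, with a score of 18 in WT and 27 in TRE-Msi2; it ended 202 nt before the end of the span. The WT list held a further Smad2 bin at chr18:76304747-76304946, also with a score of 18 and 6.8 kb before the end, with no TRE-Msi2 counterpart. Of the 1963 WT peaks of 1 bin with a score from 17 to 19, 14.0% (95% interval 12.5% to 15.6%) had no counterpart either. Smad3 (chromosome 9, span 63646766 to 63757994) was the longest gene of the set. The nearest peaks to it lay 4.77 kb away in WT, on the opposite strand within Aagab, and 141 kb away in TRE-Msi2.

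Smad4, the common partner, carried a site shared by both lists. Smad4 (chromosome 18, span 73634790 to 73703791) held 1 WT bin, chr18:73638947-73639146, with a score of 19. In the TRE-Msi2 list this bin was the first of a 400-nt peak, chr18:73638947-73639346. Its score of 29.5 was the highest among the listed Smad genes, though a joined peak's score need not rank with that of a single bin. A further TRE-Msi2 bin, chr18:73639547-73639746, with a score of 22, lay 200 nt beyond the 400-nt peak. All 3 Smad4 peaks were on the minus strand and lay 4.16 to 4.76 kb before the end of the span. That span joins all RefSeq transcripts of the gene, predicted ones included, so its end need not be the end of the transcript that was bound.

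The inhibitory Smads held few peaks, but the receptor-activated Smad3 and 73.9% of protein-coding genes held none in either list. Smad6 (chromosome 9, span 63953076 to 64022085) held none, and the nearest peaks lay 13.3 kb away in WT and 53.3 kb away in TRE-Msi2. Smad7 (chromosome 18, span 75367365 to 75395935), itself a target of the pathway that feeds back on it, held a single TRE-Msi2 bin, chr18:75395547-75395746, with a score of 24. It ended 189 nt before the end of the gene. The nearest WT peak was 36.8 kb away.

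Each Id gene held 1 peak, in the TRE-Msi2 list, and each of these crossed the annotated end of its gene. The Id1 peak (chromosome 2, span 152736251 to 152737410) was the bin chr2:152737265-152737464 with a score of 33, the highest score of the set; as a read count it has an exact Poisson 95% interval of 22.7 to 46.3, which covers counting error only. It reached 54 nt past the end of Id1. The Id3 peak (chromosome 4, span 136143822 to 136145392) was the bin chr4:136145286-136145485 with a score of 27 (17.8 to 39.3), and it reached 93 nt past the end. The Id2 peak (chromosome 12, span 25093799 to 25096092) was 400 nt wide, chr12:25093736-25094135, and passed the end by 63 nt. Its score of 16 ranked 16670th of 16939, near the bottom of the list, but it is the score of a joined peak and need not rank with those of single bins. The Id2 and Id3 peaks lay on the strand of their genes; the table holds no strand for Id1, whose peak was on the plus strand. The nearest WT peak was 455 kb from Id1, 34.7 kb from Id2 and 195 kb from Id3. Of the 114 pairs of a TRE-Msi2 peak and a gene with a span in the range of the Id genes, 37 (32.5%, 95% interval 24.0% to 41.9%) crossed the gene end, against 7.04% over all protein-coding genes.

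The Id promoters are where Smad complexes are known to act. Id1, Id2 and Id3 all appeared in the TRE-Msi2 list, but no promoter window was available for Id1. The windows of Id2 and Id3 are therefore shown. They run from 250 bases before to 50 bases after the gene start, 5′ to 3′ on the strand of the gene, from RefSeq on GRCm38.p6 (mm10), at chr12:25096043-25096342 (minus strand) for Id2 and chr4:136143572-136143871 (plus strand) for Id3. Capitals mark GTCT on either strand (read as AGAC on the other), the short motif that Smad3 and Smad4 bind, and GGCGCC, which reads the same on both strands and is known as part of BMP-responsive elements.
Id2: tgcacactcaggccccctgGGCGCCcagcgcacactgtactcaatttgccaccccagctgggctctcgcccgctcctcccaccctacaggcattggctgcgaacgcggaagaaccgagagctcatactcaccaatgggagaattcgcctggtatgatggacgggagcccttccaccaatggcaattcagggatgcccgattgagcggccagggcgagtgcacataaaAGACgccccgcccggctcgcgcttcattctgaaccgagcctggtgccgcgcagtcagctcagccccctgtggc
Id3: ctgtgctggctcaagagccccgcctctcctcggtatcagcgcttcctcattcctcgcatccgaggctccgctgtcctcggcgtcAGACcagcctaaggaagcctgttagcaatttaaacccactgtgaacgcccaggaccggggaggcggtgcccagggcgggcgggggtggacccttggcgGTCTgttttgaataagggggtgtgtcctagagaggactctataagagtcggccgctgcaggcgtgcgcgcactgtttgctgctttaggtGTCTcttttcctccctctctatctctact
The Id2 window held GGCGCC once, 231 bases before the gene start, and GTCT in either reading once. The Id3 window held GTCT in either reading at 3 places and no GGCGCC; no matches overlapped. Among all 32851 promoter windows of the table, 88.0% held GTCT in either reading, 39.6% held it at 3 or more places, and 11.9% held GGCGCC. These matches are letters in a window of DNA. The CLIP-seq peaks mark RNA at the other end of the genes, and the sequences under the peaks were not used here.

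The WT peaks of the set were of low to middling score, and the TRE-Msi2 peaks were spread from the bottom to the upper part of their list. In WT, all 8 peaks scored between 11.3 and 19, so each was at or below the list median of 19, as were 6444 of all 12061 WT peaks. In TRE-Msi2 the 13 scores ran from 16 to 33 with a median of 25, and 6 were at or below the list median of 24.7, as were 8519 of all 16939. The score percentile is the share of peaks of the same list with a lower score, counting ties by 50%. Its median over the set was 42.8 in WT and 52.6 in TRE-Msi2. In TRE-Msi2 Id1 stood highest at percentile 83.0, followed by the first Smad4 peak at 72.9, the plus-strand Smad5 peak of 28.2 at 69.0, and Smad2 and Id3 at 63.3 each. At the other end of the TRE-Msi2 list stood Id2 at 1.46 and the 400-nt Smad1 peak at 4.51, and in WT the Smad5 peaks of 11.3 and 13 at 0.402 and 2.88, all joined from 2 bins; a joined peak carries a fractional or averaged score, so a low value there does not rank with the low value of a single bin. Widths were ordinary: 5 of the 8 WT peaks and 8 of the 13 TRE-Msi2 peaks were 1 bin wide (62.5% and 61.5%), against 63.2% and 58.8% of all peaks.

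**Figure D2:**
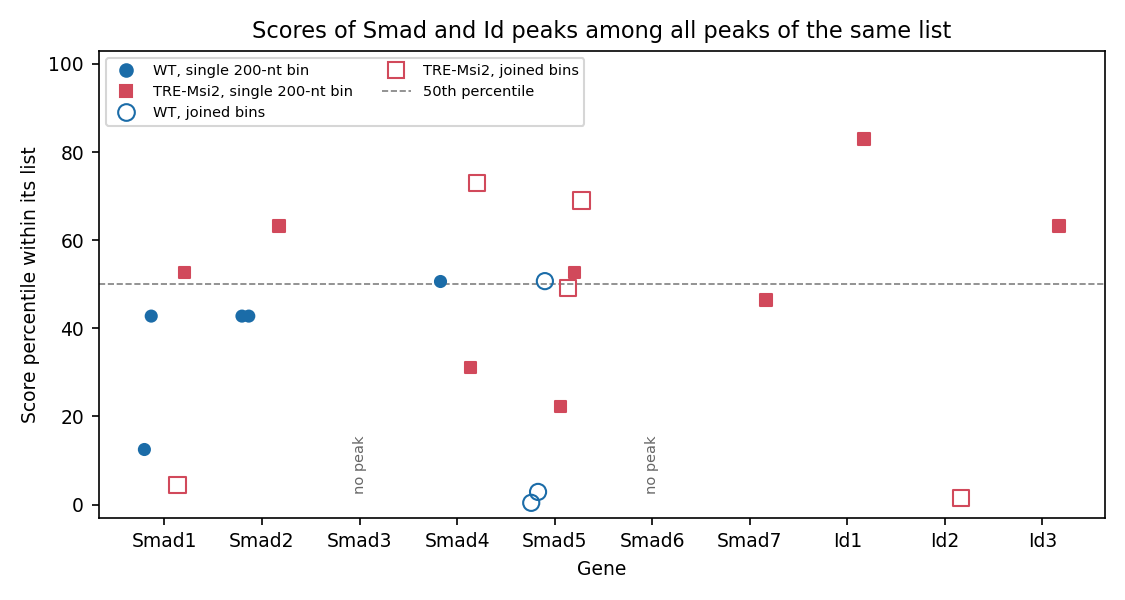
Scores of the peaks over each gene, as percentiles among all peaks of the same list (vertical axis, 0 to 100). Blue circles are WT and red squares TRE-Msi2 peaks, filled for peaks of 1 bin and open for joined bins, and the dashed line is the 50th percentile. The WT symbols lie at or below about the dashed line, and the highest symbol is Id1 at 83.0.

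Sites found in both lists lay in Smad1, Smad2, Smad4 and, on the minus strand, Smad5. Of the 8 WT peaks 6 (75%, exact Clopper-Pearson 95% interval 34.9% to 96.8%) were overlapped on the same strand by a TRE-Msi2 peak, against 91.3% of all WT peaks. A WT peak lay over 5 of the 13 TRE-Msi2 peaks (38.5%, 13.9% to 68.4%) and over 57.6% of all TRE-Msi2 peaks. Both intervals take in the value for all peaks, but they treat the peaks of a gene as independent. Both minus-strand WT peaks of Smad5, for example, were overlapped by the same 1000-nt TRE-Msi2 peak. The same single bin was called in both lists at 1 site in Smad1 and 1 in Smad2. There the TRE-Msi2 score was 1.39 and 1.5 times the WT score. Over all 3942 such identical bins the median ratio was 1.52 (middle 50% of bins 1.31 to 1.75), and both Smad bins fell inside that middle range.

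How often a TRE-Msi2 peak had a WT counterpart depended on its score, and the peaks of Smad7 and the Id genes are best read against peaks of their own score. Among TRE-Msi2 peaks of 1 bin with a score within 1 of the 24 in Smad7, 70.8% (95% interval 68.7% to 72.8%) had no WT counterpart. Around the 27 of Id3 the share was 51.9% (49.2% to 54.6%), and around the 33 of Id1 it was 29.6% (26.2% to 33.2%). Among 2-bin peaks around the 16 of Id2 it was 52.8% (46.2% to 59.4%). A lack of a WT peak was therefore the more frequent outcome at the score of Smad7, close to as frequent as its opposite for Id2 and Id3, and the less frequent outcome for Id1. The second Smad4 bin (22), the plus-strand Smad5 bin of 21 and the minus-strand Smad5 bin of 25 also lacked a counterpart, as did 81.1%, 85.5% and 64.2% of bins of like score. The plus-strand Smad5 peak of 28.2, made of 2 bins, lacked one where 37.7% of like peaks did, so there, as for Id1, the lack was the less frequent outcome.

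**Figure D3:**
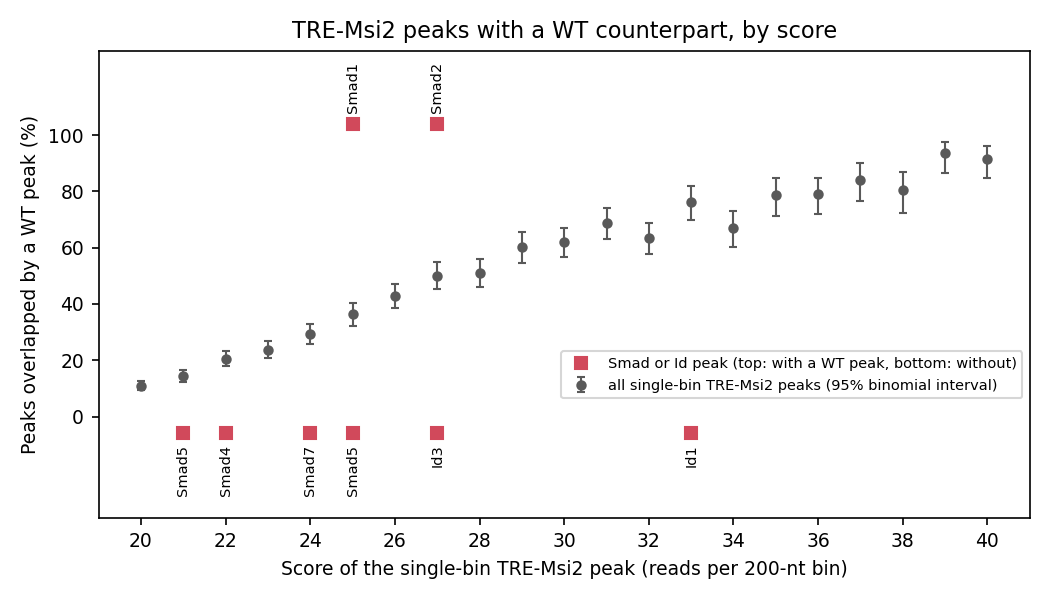
Share of 1-bin TRE-Msi2 peaks overlapped by a WT peak (vertical axis, %) by score (horizontal axis, reads per 200-nt bin), grey points with exact 95% binomial intervals. Red squares are 1-bin peaks of the named genes, placed above the axis range if they had a WT peak and below it if not; the share climbed from 10.9% at a score of 20 to 91.7% at 40, and Id1 at 33 sits furthest right among those without a counterpart.

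The share of peaks at gene ends was not separated from that of all peaks by its interval in either list, though the interval treats the peaks of a gene as independent. In the TRE-Msi2 list 7 of 13 peaks (53.8%, 95% interval 25.1% to 80.8%) lay in the last 2 kb of the span in the direction of the reads, namely both of Smad1, those of Smad2 and Smad7, and the 3 Id peaks; over all pairs of a peak and a protein-coding gene 39.9% did. For the Id genes, whose spans are 1.16 to 2.29 kb, this window takes in nearly the whole gene; of the 10 TRE-Msi2 peaks over Smad genes 4 lay there (40%, 12.2% to 73.8%). In WT 3 of 8 did (37.5%, 8.52% to 75.5%), against 44.6% of all pairs. Counting only peaks that ended within 200 nt of the gene end or beyond it, there were 4 in TRE-Msi2 and 0 in WT. The 4 were in Smad7, Id1, Id2 and Id3, and the shares of all pairs were 15.6% and 16.4%. Over genes with spans in the range of the Id genes, 57 of 114 TRE-Msi2 pairs (50%) and 36 of 75 WT pairs (48%) ended there. Of the 10 TRE-Msi2 peaks over Smad genes, 1 (10%) did. Smad7, Id1, Id2 and Id3 are also the members with a TRE-Msi2 peak only, but this match depends on the 200-nt limit. The Smad2 bin called in both lists ended 202 nt before the gene end, against 189 nt for the Smad7 bin. Smad3 and Smad6 held no peak to place. The interior Smad2 peak of the WT list, 6.8 kb before the end, and its plus-strand Smad5 peak, 3.74 kb before the end, were the WT peaks without a counterpart. Only for Smad5 was the strand of the gene known. Exons and untranslated regions were not annotated in the table used, so the part of the transcript under a peak was not assigned.

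Around these 10 genes, 77 other genes of the pathway, listed by role, held WT peaks in 21 cases and TRE-Msi2 peaks in 25. These were 27.3% and 32.5%, against 20.3% and 24.9% of protein-coding genes. The median span of the 77 was 29.6 kb, and protein-coding genes in the span range of the Smad genes held peaks at 28.6% and 34.1%. No TGF-beta or activin ligand gene of 9 held a peak in either list, and of 11 extracellular antagonists only Twsg1 did, in WT (score 16). BMP ligand genes gave 3 of 8 in each list, with top WT and TRE-Msi2 scores of 21 and 32 in Bmp3, 28 and 30 in Bmp4 and 31 and 54 in Bmp8b; the Bmp4 peaks ran against the strand of the gene. Of 14 receptors and coreceptors 2 held a WT peak and 6 a TRE-Msi2 peak. Bmpr1a, a type I BMP receptor, scored up to 27 in WT and 36 in TRE-Msi2, and Rgmb, a BMP coreceptor, up to 31 and 24.5, whereas 4 receptor genes held TRE-Msi2 peaks alone, among them Bmpr2 and Acvr2a with scores of up to 23 and 22. The 4 include both type I receptors (Acvr1b and Tgfbr1, named after their values were seen) and type II receptors (Bmpr2 and Acvr2a). Of all protein-coding genes 5.76% held a TRE-Msi2 peak alone, and of those in the span range of the Smad genes 7.29% did. The median span of the 14 genes was 74.7 kb. Top scores of the 4 ran from 20 to 23. Among all 1-bin TRE-Msi2 peaks, 10.9% at a score of 20 and 23.8% at 23 were overlapped by a WT peak. These shares are per peak, whereas Bmpr2 held 3 TRE-Msi2 peaks, Acvr2a 4, and Acvr1b and Tgfbr1 1 each. Whether low scores account for the lack of WT peaks over these genes was not tested.

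Among 20 genes for proteins that modify or accompany Smads, 10 held a WT peak, 11 a TRE-Msi2 peak and 9 both. Their median span was 73.4 kb, against 30.1 kb for the BMP ligands and 17.6 kb for the antagonists. Shares with a WT and a TRE-Msi2 peak were 50% and 55%, against 28.6% and 34.1% of protein-coding genes in the span range of the Smad genes. The 14 receptors and coreceptors, with a median span of 74.7 kb, stood at 14.3% and 42.9%. Whether span accounts for these shares was not tested. The highest TRE-Msi2 scores among them were 37.9 in Tob1, an antiproliferative protein that dampens BMP signals, 37 in Nedd4l, a ubiquitin ligase that acts on Smad2 and Smad3, and 34 each in Usp9x, a deubiquitinase of Smad4, and Ep300, a histone acetyltransferase and Smad coactivator. Usp9x held 9 peaks in each list. In the same families as the members, Smad9, the third Smad of the BMP branch, held 1 bin in each list, with scores of 17 and 30, and Id4 held none. Of the basic helix-loop-helix partners of Id proteins, Tcf12 held a WT peak (15), Tcf4 a TRE-Msi2 peak (24) and Tcf3 none. Among 10 other target genes Cdkn1a, Cdkn2b and Msx2 held peaks in both lists. Cdkn1a, a cell cycle inhibitor, scored up to 25 and 51, Cdkn2b, another, 23.7 and 27, and Msx2, a homeobox gene, 22 and 28; the peaks of Cdkn2b and Msx2 also touched another gene span.

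**Figure D4:**
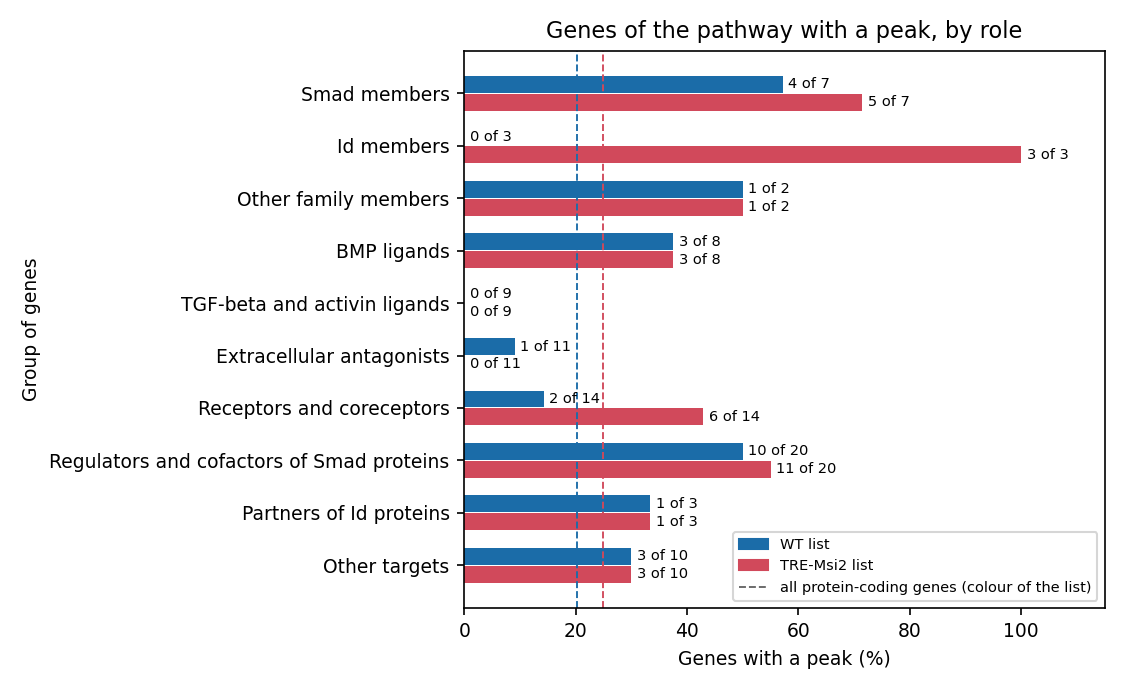
Share of genes with a peak (horizontal axis, %, bars from 0) by role in the pathway, blue for the WT and red for the TRE-Msi2 list, with the counts beside the bars. Dashed lines mark the shares among all protein-coding genes, 20.3% in WT and 24.9% in TRE-Msi2; the Id genes have no blue bar, and the ligands of the TGF-beta and activin branch have neither.

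The genes most like Smad5 and Id1 were sought among protein-coding genes with the same number of peaks in each list and a span within 1.5 times, by the summed difference in the percentile of the top score over the 2 lists. For Smad5, 29 genes qualified, and the nearest were Plekha1 (top scores 20 in WT and 30 in TRE-Msi2), Bpnt2 (21.2 and 30) and Osbp (20 and 33). For Id1, 12 genes qualified, each with 0 WT and 1 TRE-Msi2 peak, and the nearest were Erich4 (31), Higd2a (37) and Mt1 (43). This likeness rests on 2 values a gene for Smad5 and on 1 for Id1, which has no WT score.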

How the data were processed

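MSI2 CLIP-seq was deposited as 1 peak list per genotype, each from 2 libraries. Per the file names, the authors called peaks with Piranha after removing duplicate reads and merging the samples; the submitters' processing notes name cutadapt, TopHat, mm9 and mm10, with no versions. Each deposited row joins a score (reads per bin for peaks of 1 bin, not scaled to depth) and a p-value with a colon. Deposited p-values exceeded 0.05 for 2566 peaks of WT and 4774 of TRE-Msi2, all of them joined from several bins, so p-values were not used as evidence. Peaks were assigned to gene spans of the RefSeq table GRCm38.p6 by 1 shared base, without strand. Gene strand came from the RefSeq promoter table, which held 6 of the 10 members; for Smad2, Smad4, Smad7 and Id1 the direction of the reads was used. Distances run in the direction of each peak's reads, except in the map of peak places, where those of the opposite-strand Smad5 peaks run along the gene. A peak was shared if 1 base overlapped on the same strand. Intervals are exact 95% intervals, cover counting error only and treat peaks as independent. Depth is unknown. No test was made, since each group is 1 pooled list. Members, gene lists and rules were chosen with earlier results of these data known. All members were named; of pathway genes, those with peaks, and at most 4 per role by TRE-Msi2 score where a role had more; the genes most like a member were the 3 nearest. The planned comparison of protein sequences was not made. Overlap functions were tested on simulated data. Python 3.11.15, pandas 2.3.3, numpy 2.4.6, scipy 1.17.1 and matplotlib 3.10.9 were used.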

Additional observations from a re-analysis of the deposited data

How the results depend on the processing

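Of 77 recomputed values for 11 results, 72 stayed within 1.5 times (counts) or within the 95% interval of the reported value (shares and medians). Those intervals are wide, so values inside them can still differ much. In the upper 50% of each list by score, the median percentile, taken anew within the shortened list, went from 42.8 to 5.21 in WT. In TRE-Msi2 it went from 52.6 to 26.7. There the share of TRE-Msi2 peaks overlapped by a WT peak went from 38.5% to 14.3%. These values count among the 72. With only the upper 50% of each list by score, the members with a WT peak went from 4 to 2, the WT peaks over them from 8 to 2, the TRE-Msi2 peaks from 13 to 7, and the share of WT peaks in the last 2 kb from 37.5% to 0%; this setting leaves fewer peaks by construction. With deposited p-values of at most 0.01 the WT peaks went from 8 to 5, which takes out joined peaks. Members with a TRE-Msi2 peak only numbered 3 when the lowest scores of that list were dropped until it was as long as the WT list, since Id2 scored too low, and 4 under every other setting run for that count, though not always the same genes: the upper 50% put Smad1 and Smad2 in place of Smad7 and Id2, and the limit on p-values put Smad5 in place of Id2. With only peaks on the transcribed strand, 6 WT and 11 TRE-Msi2 peaks were left, and the counts of members stayed at 4 and 8. For Smad2, Smad4, Smad7 and Id1 that strand was taken as the most common strand of their own peaks. Those genes could not drop out, so their part of this outcome was fixed in advance. Of the 6 members with a known strand, 2 held a WT peak and 4 a TRE-Msi2 peak on it. Spans widened by 5 kb added 1 WT peak, at Smad3. Leaving out a library was not possible, because the lists are pooled. No paired analysis was possible because each list joins both libraries of a genotype. With intervals this wide, shares over 8 or 13 peaks are coarse.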
